A study of Artemisia annua with 12 samples.

Results

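Among 63226 gene identifiers measured in leaves of Artemisia annua, 89 were chosen because their transcripts were lower after 2 h under UV-B lamps and still lower after 4 and 6 h. The choice used the mean of log2(value + 1) over the 3 libraries of each harvest. A gene was kept when its mean was at least 1.5 lower than at 0 h at each of the 3 exposed harvests, when the 4 h and 2 h means were less than 1 apart, and when its mean value was above 0.1 in every group. Every difference from 0 h, and the difference between 4 and 2 h, is therefore a property of the choice and is given as a description without a test.

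The plants were wild-type seedlings of the high-artemisinin cultivar Huhao 1, 6 weeks old, raised in a greenhouse with 16 h of light and 8 h of darkness. Narrowband UV-B lamps at 1.5 μmol per square metre and second were added to the ordinary light, and the newest fully expanded leaf was taken at 0 h (UV0, before exposure), 2 h (UV2), 4 h (UV4) and 6 h (UV6). Each harvest has 3 libraries, and each library pools leaves of 3 seedlings, described as biological repeats; p-values measure the spread between these pools. The labels give no seedlings kept without UV-B to 2, 4 or 6 h, so the length of exposure cannot be told apart from the time of day of the harvest.

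In plants, UV-B is sensed by the photoreceptor UVR8, which acts with the ubiquitin ligase component COP1 and the transcription factor HY5 to change transcription; this order of events is known from Arabidopsis. The response raises genes of sunscreen flavonoids and of repair of UV damage, and restrains growth. The level of a transcript reflects both its synthesis and its decay, so a lower level after hours of exposure can follow from either. No identifier in the deposited table comes with a gene name, and neither functions nor leaf markers could be read from it; members are described by level, course and spread. Of the 89 members, 4 are printed by identifier and the others by their rank in 0 h level.

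Library totals of the deposited values lay between 851404 and 868133, and read depth is unknown. Library 1 of the 2 h harvest stood apart among abundant genes: for genes with a 2 h mean above 1000, the median coefficient of variation was 4.80% and 5.28% between it and the other libraries of that harvest, which differed by 1.31% between themselves. Among the members, the median absolute log2 difference was 0.15 and 0.17 for the pairs with library 1, and 0.15 for the pair without it. Choosing members without that library also gave 89 genes, of which 85 were the same.

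The members were a minority of the genes that were low at 2 h. With the same minimum in every group, 344 genes were lower by 1.5 or more at 2 h on the log2 scale. The 89 members made up 25.9% of them. A further 15 genes were also lower by 1.5 or more at all exposed harvests but moved by 1 or more between 2 and 4 h, 11 of them downwards. The other 240 genes (69.8%) no longer met the limit of 1.5 at 4 or 6 h, and 98 of the 344 stood above -0.5 against 0 h at 6 h. Members had a median 0 h value of 19.0, against 9.76 for these 98 genes. At 2 h the median difference from 0 h was -1.96 for the members and -1.78 for the 98 genes. At 6 h the members stood at a median of -2.05, against -0.03 for the 98 genes, a contrast that the choice itself makes. Both groups were chosen from these same values, so the contrasts at 0 h and 2 h are a description too. The median SD of log2(value + 1) was larger in the 98 genes than in the members. It was 0.136 against 0.0972 at 0 h and 0.199 against 0.139 at 2 h.

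The minimum of 0.1 left out more of the genes that met the other limits than it kept. Without it 213 genes would have been kept; 124 of these were left out because at least 1 group mean was 0.1 or lower. The lowest group mean inside the set was 0.107 and the highest outside it was 0.10. The weakest difference inside was -1.502 and the nearest outside was -1.493. For the distance between 4 and 2 h, the last value inside was 0.956 and the first outside was 1.14. All 89 members passed the filter for testing, which asks for 3 or more libraries at a value of 1 or higher, but 21 passed it only with the help of their 0 h libraries, and 15 had no exposed library at 1 or more.

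**Figure D1:**
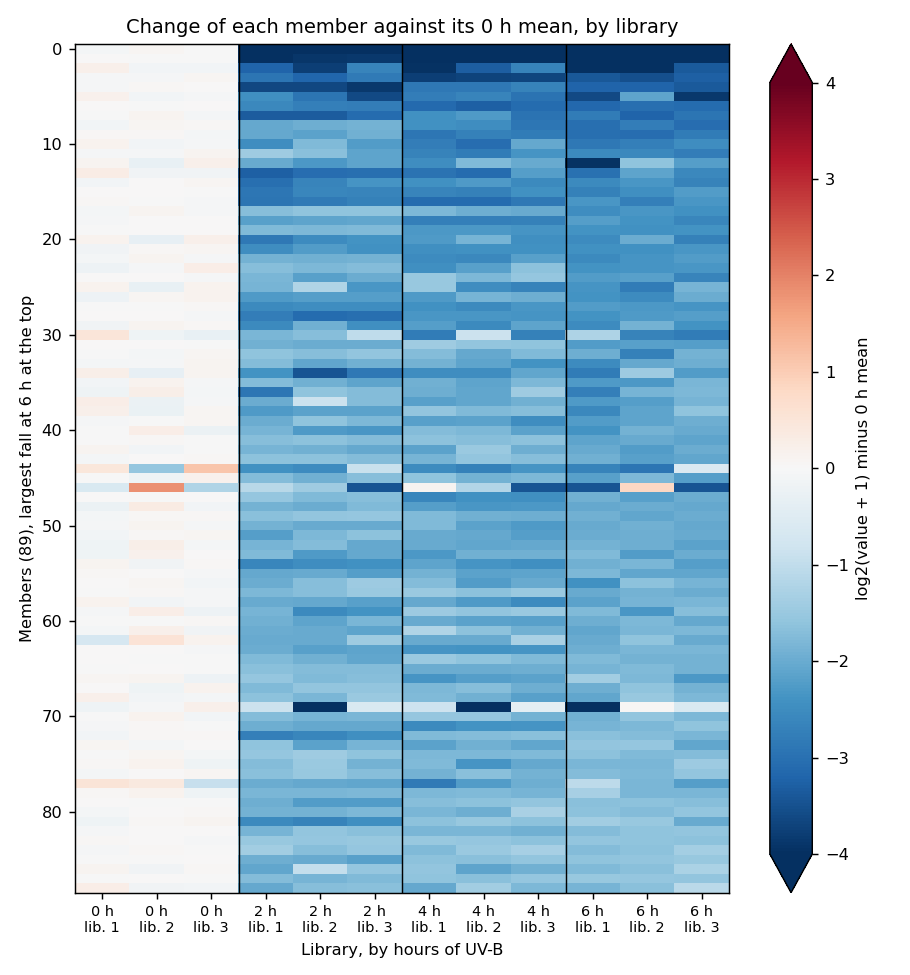
Difference of log2(value + 1) from the gene's own 0 h mean for the 89 members (rows, largest 6 h difference at the top) in the 12 libraries (columns, 3 each at 0, 2, 4 and 6 h); blue is lower. Exposed columns are blue in nearly all rows, with medians over members between -1.94 and -2.13, and a few rows change colour between libraries of 1 harvest.

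All 9 exposed libraries carried the pattern. The median difference of the members from their 0 h mean was -1.94, -2 and -2.03 on the log2(value + 1) scale in the 3 libraries at 2 h. At 4 h it was -2.02, -2.10 and -2.05, and at 6 h it was -2.13, -1.99 and -2.03. Between 82 and 86 members per exposed library stood at or below -1.5. In 86 of the 89 members every exposed library was below every 0 h library, as was the case for 11.6% of the 25841 tested genes; the choice used these values, so these shares cannot be compared. By the limma model, 86 members were called lower at 2 h, where 20.8% of all tested genes were, and 87 at 4 h and at 6 h, where the shares were 18% and 18.5%; nothing is read from these counts. In whole-leaf RNA, fewer cells of a type and less RNA per cell cannot be told apart.

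The members covered a wide range of levels. The mean value at 0 h was lowest at 2.37, had a median of 19.0 and quartiles of 6.67 and 68.0, and was highest at 9771. The medians of the exposed harvests were 2.87 at 2 h, 2.96 at 4 h and 2.46 at 6 h. By 0 h mean value, 11 members stood at 100 or more, 33 at 20 to 100, 35 at 5 to 20 and 10 under 5. These levels compare genes on the deposited scale. Its unit is not named in the table, and its relation to gene length was not tested.

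CTI12_AA307810 was the most abundant member. Its values were 9614.48, 9914.76 and 9785.08 in the 0 h libraries, 2885.28, 2828.07 and 2860.89 at 2 h, 2008.00, 1972.86 and 1894.50 at 4 h, and 1868.60, 1839.25 and 1855.47 at 6 h. The libraries of each harvest lay close together, and no library of one harvest reached into the range of another. It was 3.42-fold lower at 2 h than at 0 h, 4.99-fold lower at 4 h and 5.27-fold lower at 6 h in mean value. Among all genes of the table it ranked 4 before exposure, 31 after 2 h, 46 after 4 h and 51 after 6 h.

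This gene made up 70.2% to 70.4% of the summed values of the members at 0 h and 66.9% to 68.7% at 6 h. The 89 members together held 1.61% ± 0.019 (SD, n = 3) of all listed values at 0 h. The share was 0.438% ± 0.0039 after 2 h, 0.333% ± 0.0053 after 4 h and 0.320% ± 0.0015 after 6 h. Without CTI12_AA307810 it was 0.477% ± 0.0043 at 0 h, then 0.104% ± 0.0019 after 2 h, 0.105% ± 0.0034 after 4 h and 0.103% ± 0.0034 after 6 h. The step from 2 to 4 h in the summed level was thus carried by 1 gene, while the sum of the other members differed between exposed harvests by less than the spread between libraries.

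The largest 6 h difference belonged to CTI12_AA476540, ranked 3 in 0 h level. It was measured at 300.27, 341.65 and 319.85 at 0 h and at 2.02, 2.18 and 7.08 at 2 h. At 4 h the libraries gave 2.28, 0.00 and 10.20, and at 6 h 2.74, 0.20 and 0.42. Every exposed library lay far below every 0 h library, but the exposed libraries of a harvest differed severalfold among themselves. In mean value 1.17% of the 0 h level was left at 2 h, 1.30% at 4 h and 0.349% at 6 h. On the log2(value + 1) scale its differences from 0 h were -6.23, -6.59 and -7.44, where the next members stood at -3.93, -4.11 and -4.15.

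Apart from this gene, 6 members were lower by 3 or more at 6 h on that scale. The member ranked 42 at 0 h read 23.47, 22.71 and 22.97 at 0 h, 0.49, 0.61 and 0.65 at 2 h, 0.35, 0.36 and 0.46 at 4 h and 0.37, 0.35 and 0.34 at 6 h. Its libraries agreed within each harvest at every level. The member ranked 12 read 112.87, 91.73 and 91.55 at 0 h, then 9.75, 6.37 and 15.02 at 2 h, 5.41, 9.15 and 14.42 at 4 h and 4.27, 2.70 and 8.77 at 6 h, with library 3 the highest of each exposed harvest. Of the remaining members, 43 were lower by 2 to 3 on the log2 scale at 6 h and 39 by 1.5 to 2. Only 3 members were lower by 3 or more at all of 2, 4 and 6 h.

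The 11 members with a 0 h value of 100 or more kept a median of 26.9% of it at 2 h, 24.8% at 4 h and 21.0% at 6 h. The second in level read 514.84, 536.30 and 524.76 at 0 h and 156.73, 145.46 and 153.24 at 2 h. It stood at 173.31, 164.17 and 178.45 at 4 h and at 181.19, 178.16 and 175.81 at 6 h, so its lowest libraries were those of the 2 h harvest. The fifth read 171.60, 167.60 and 170.85 at 0 h and 27.34, 24.43 and 24.13 at 2 h, with 18.80, 16.87 and 19.17 at 4 h and 18.42, 20.35 and 19.34 at 6 h. Here the 2 h libraries were the highest of the exposed ones, without overlap. In the sixth, the libraries of each harvest lay below those of the one before, with 158.64, 177.23 and 161.97 at 0 h, 49.79, 53.49 and 53.97 at 2 h, 46.65, 42.37 and 40.46 at 4 h and 28.84, 32.09 and 30.27 at 6 h.

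Over all 89 members, a median of 18.9% of the 0 h value was left at 2 h, 17.1% at 4 h and 16.4% at 6 h. At 10% or less stood 23 members at 2 h, 26 at 4 h and 22 at 6 h. Members with 0 h values under 5 kept a median of 7.55% at 6 h, those at 5 to 20 kept 13.1%, those at 20 to 100 kept 22.8% and those at 100 or more 21.0%. Across the 89 members the Spearman correlation between 0 h value and percentage left at 6 h was 0.57. The choice sets such an order, because log2(value + 1) asks for a deeper relative drop from genes with low values; on that scale itself the correlation of 0 h value with the 6 h difference was -0.15. Relative to the median of all tested genes, which differed from 0 h by 0.13 at 2 h, 0.21 at 4 h and 0.20 at 6 h, the members lay lower still. After median-ratio scaling of the libraries their medians were -2.11, -2.25 and -2.26.

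**Figure D2:**
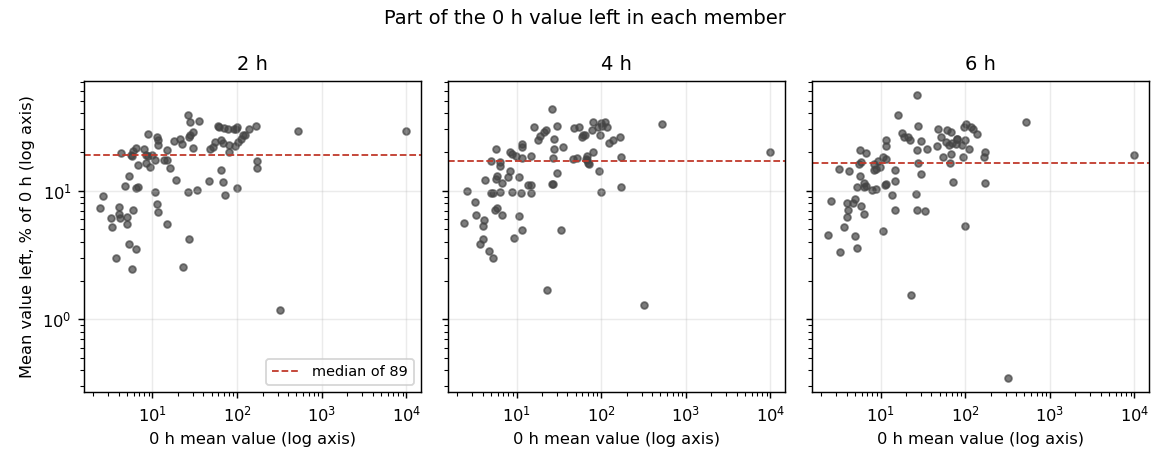
Percentage of the 0 h mean value left in each of the 89 members (points) at 2, 4 and 6 h against its 0 h mean value, both on log axes, with the median of the members as a dashed line. The medians are 18.9%, 17.1% and 16.4%; CTI12_AA476540 is the lowest point of each panel at 1.17%, 1.30% and 0.349%, and CTI12_AA307810 the point farthest to the right.

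The harvest with the lowest level differed between members. It was 2 h for 27 members, 4 h for 30 and 6 h for 32. Between 2 and 4 h, 49 members moved down and 40 up in mean log2 value, with a median of -0.05, and 70 of them by less than 0.5; these values were limited to less than 1 by the choice.

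The comparison of 6 h with 4 h asked whether the low level was still moving at the end of the exposure. The rule sets no direct limit on this difference. It leaves out genes above -1.5 against 0 h at 4 or 6 h, and genes with a group mean of 0.1 or lower. These limits shape the shares of members called higher and lower. At 6 h, 6 members were higher than at 4 h and 8 were lower, at a Benjamini-Hochberg adjusted p under 0.05 over 25841 genes (limma). These are 6.74% and 8.99% of the members, where 4.44% and 5.47% of all tested genes were called higher and lower. The 89 include the 21 members that passed the filter for testing only with the help of their 0 h libraries. Nothing is read from the contrast of these shares with those of all tested genes. A further 75 members were not called; 22 of the 89 had an unadjusted p under 0.05. The called differences lay between 0.15 and 0.68 for those higher and between -0.73 and -0.08 for those lower on the log2(value + 1) scale, which understates the change of low genes. As ratios of mean values they lay between 0.584 and 2.27, and 1 of the 14 was at 2 or more. Over all 89 members the median difference was -0.02, as over all tested genes (-0.02), and 79 members were within 0.5 of no difference.

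Calls depended on level. Of the 30 members with a mean of 20 or more over the 12 libraries, 12 (40%) were called in either direction, where 21.9% of all genes at that level were. At a mean of 5 to 20 it was 1 of 19 members, against a share of 9.37%, and under 5 it was 1 of 40, against 4.69%. The 0 h libraries raise the 12-library mean of a member, so its exposed level is lower than that of a stable gene of equal mean. The number higher was 3 without library 2 of the 4 h harvest, 3 without library 1 of the 6 h harvest and 3 in a model of these 2 harvests alone.

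Among the members called higher, the largest difference on the log2(value + 1) scale was that of CTI12_AA229990, with 18.17, 18.73 and 21.83 at 6 h against 10.87, 12.19 and 12.42 at 4 h. The libraries of the harvests did not overlap, and the difference was 0.68 ± 0.073 (SE) on the log2 scale (limma adjusted p = 0.000153), a ratio of mean values of 1.66. At 2 h it read 16.90, 15.63 and 15.63, below its 6 h libraries, and at 0 h 65.97, 70.15 and 67.78, so that 28.8% of the 0 h value was present at 6 h. CTI12_AA060160 came next among those called, at 1.50, 0.91 and 1.52 at 6 h against 0.50, 0.48 and 0.75 at 4 h, a difference of 0.54 ± 0.125 (limma adjusted p = 0.0191); its ratio of mean values, 2.27, was the highest of the called members. It read 12.16, 11.43 and 11.29 at 0 h and 0.67, 0.78 and 0.92 at 2 h. This gene passed the filter for testing only with the help of its 0 h libraries. Its ratio rests on low values, between 0.48 and 1.52. Its call was lost without library 1 or 2 of the 4 h harvest, without library 1 or 3 of the 6 h harvest and in the model of these 2 harvests (adjusted p of 0.0667 to 0.0932; 0.0055 to 0.0932 over all 19 alternatives).

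All 6 members that were higher at 6 h than at 4 h had stood lower at 4 h than at 2 h, and 5 of the 8 that were lower had stood higher at 4 h than at 2 h. Both differences contain the same 4 h libraries, so the opposite signs are not independent. The member ranked 10 at 0 h shows the second course, with 22.35, 23.65 and 23.02 at 6 h against 40.36, 36.31 and 35.50 at 4 h (difference -0.68 ± 0.050, limma adjusted p = 9.32e-06), after 28.35, 27.22 and 27.04 at 2 h. The sixth member, described above, was lower at 6 h by 0.49 ± 0.064 (limma adjusted p = 0.00059). CTI12_AA307810 was lower by 0.08 ± 0.022, a ratio of 0.947 (limma adjusted p = 0.0435); it missed the threshold in 15 of the 19 alternatives, with adjusted p of 0.0544 to 0.343. For CTI12_AA476540 the difference was -0.84 ± 0.783 (limma adjusted p = 0.589), and without library 3 of the 4 h harvest, its highest there, it was 0.034.

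**Figure D3:**
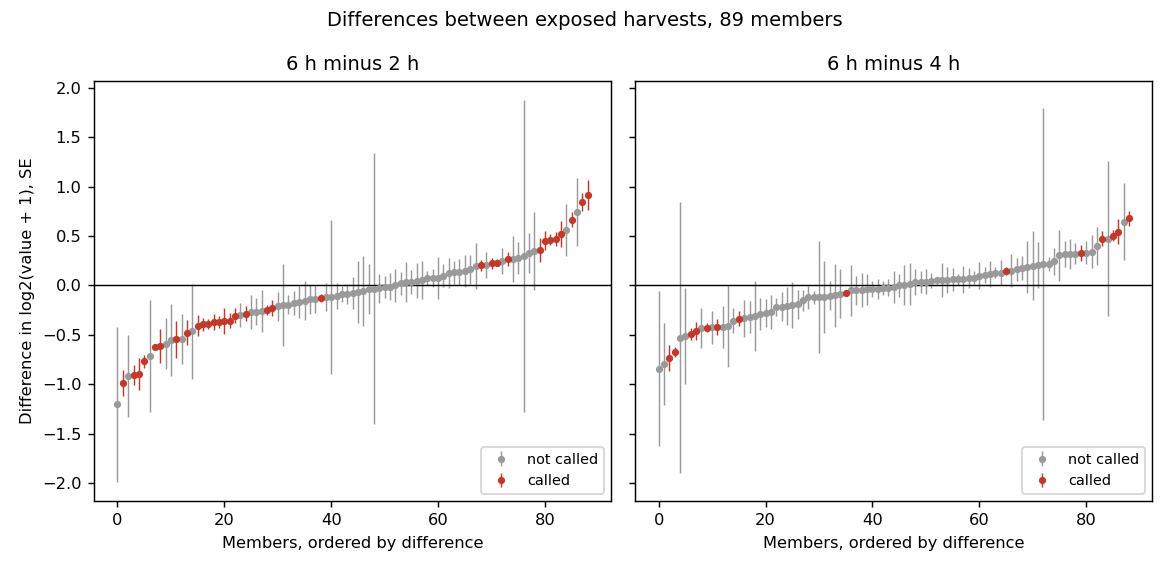
Differences of the 89 members between exposed harvests on the log2(value + 1) scale with their SE from limma, 6 h minus 2 h on the left and 6 h minus 4 h on the right, each ordered by size; red points passed an adjusted p of 0.05. The called points lie between -0.98 and 0.92 on the left and between -0.73 and 0.68 on the right.

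Set against 2 h, 12 members were higher at 6 h and 20 were lower (limma, adjusted p under 0.05). These are 13.5% and 22.5% of the members, where 29.9% and 20% of all tested genes were higher and lower. The choice leaves out genes that were low at 2 h but had risen past its limit by 6 h. It therefore shapes these shares, which also include the 21 members that passed the filter only with their 0 h libraries. Nothing is read from their contrast with all tested genes. The other 57 members were not called. An unadjusted p under 0.05 (limma) was found for 34 of the 89. The called differences lay between -0.98 and 0.92 on the log2(value + 1) scale. In ratio of mean values 2 called members stood at 2 or more and 4 at 0.5 or less, between 0.283 and 8.45. Both extremes rest on low values, with a mean of 0.14 at 2 h for the highest ratio and 0.523 at 6 h for the lowest. The median over the members was -0.08, against 0.08 over all tested genes, a contrast that the choice also shapes. Within 0.5 of no difference were 70 members. Without library 1 of the 2 h harvest, 13 were higher and 19 lower.

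CTI12_AA307810 was lower at 6 h than at 2 h by 0.62 ± 0.022 (limma adjusted p = 1.75e-09), a ratio of 0.649. The largest called decline was in the member ranked 48, which read 0.96, 1.32 and 0.91 at 6 h against 2.83, 3.06 and 3.32 at 2 h (-0.98 ± 0.129, limma adjusted p = 7.97e-05), and 13.77, 15.68 and 15.25 at 0 h. In the opposite direction, the member ranked 73 read 1.56, 1.32 and 0.67 at 6 h against 0.14, 0.06 and 0.22 at 2 h (0.92 ± 0.153, limma adjusted p = 0.000475), after 4.99, 5.89 and 6.28 at 0 h. It stayed below all its 0 h libraries.

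The member ranked 22 was lowest at 2 h and reached only part of its 0 h level afterwards. It read 68.81, 70.13 and 66.96 at 0 h, 9.14, 7.29 and 7.60 at 2 h, 12.94, 12.84 and 12.55 at 4 h and 12.35, 13.44 and 14.03 at 6 h (6 h minus 2 h, 0.67 ± 0.075, limma adjusted p = 2.27e-05). CTI12_AA229990 was higher by 0.27 ± 0.073 (limma adjusted p = 0.0106) and CTI12_AA060160 by 0.36 ± 0.125 (limma adjusted p = 0.0338). The second of these calls was lost in 7 of the 19 alternatives, with adjusted p of 0.058 to 0.115, namely a pseudocount of 5, median-ratio scaling, the model of these 2 harvests and each one without library 1 or 2 of the 2 h harvest or library 1 or 3 of the 6 h harvest. For CTI12_AA476540 the difference was -1.20 ± 0.783 (limma adjusted p = 0.231). All 14 members called between 6 and 4 h were also called between 6 and 2 h, 3 of them higher and 7 lower in both comparisons and 4 in opposite directions; the comparisons share the 6 h libraries.

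**Figure D4:**
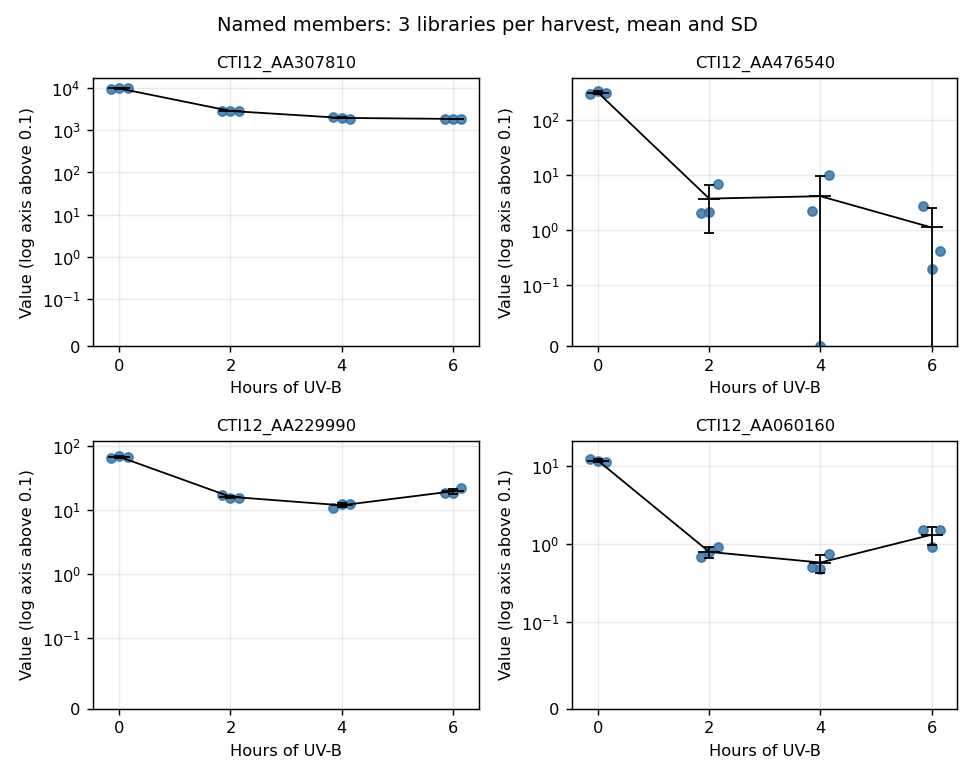
Values of the 4 members printed by identifier in each library (blue points) with the mean and SD of 3 libraries (black) at 0, 2, 4 and 6 h, on an axis that is logarithmic above 0.1; bars reaching below 0 are cut at 0. CTI12_AA307810 steps down to 1854 at 6 h, CTI12_AA476540 spreads from 0.00 to 10.20 at 4 h, and CTI12_AA229990 and CTI12_AA060160 are higher at 6 h than at 4 h.

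The low level was also read in libraries left out of each choice. The rule itself was set with earlier results of these data known, so these readings are a description and not independent support. The rule was applied to 2 libraries of each harvest, and the chosen genes were read in the third, once for each library number. Without the libraries numbered 1, 93 genes were chosen, and 71 of them (76.3%) were lower by 1.5 or more at all 3 exposed harvests in libraries 1, where 1.1% of all tested genes were. For libraries 2 it was 71 of 99 genes (71.7%), where the share of all tested genes was 1.03%, and for libraries 3 it was 69 of 98 (70.4%), where it was 0.987%. Below 0 h at all exposed harvests stood 90, 95 and 96 of the chosen genes in the library read. With 1 library per harvest to read, this has no test.

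The size of the difference was read in the same way. At 6 h the chosen genes had medians of -2.05, -2.05 and -2.06 in the choosing libraries, and of -2.13, -1.98 and -1.98 in libraries 1, 2 and 3 as read. At 2 h the medians as read were -1.91, -1.90 and -1.90, and at 4 h -1.90, -2.01 and -1.97. The 3 choices shared 79, 78 and 80 genes with the 89 members.

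**Figure D5:**
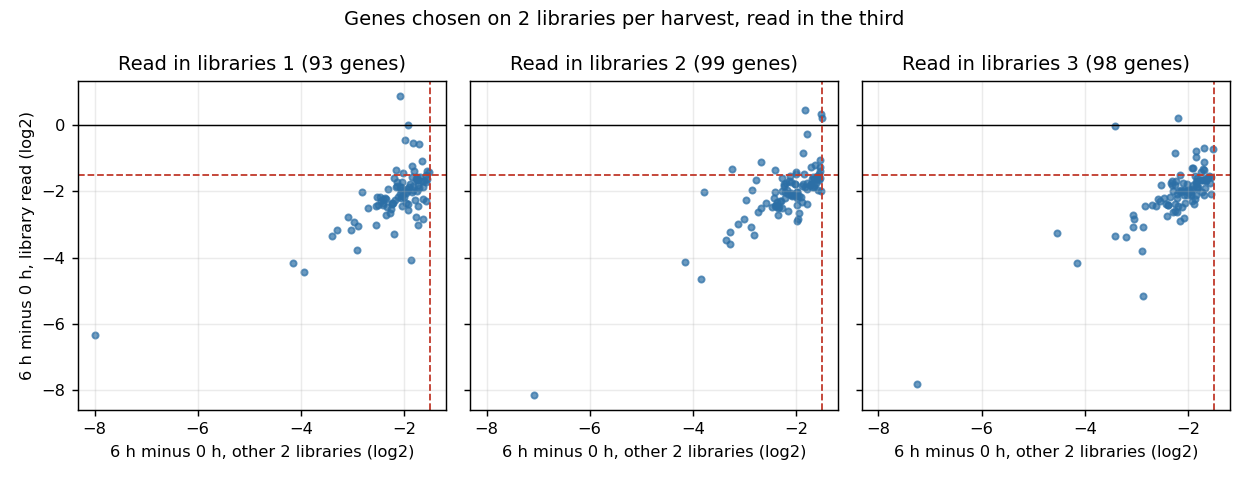
Difference between 6 and 0 h in log2(value + 1) for genes chosen on 2 libraries per harvest (horizontal) and read in the third library (vertical), 1 panel per library number with 93, 99 and 98 genes; dashed lines mark -1.5. Most points lie below the horizontal dashed line, and a few stand at or above 0.

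The median SD of log2(value + 1) within a harvest was 0.139 for the members at 2 h, against 0.125 over all tested genes. It was 0.146 against 0.108 at 4 h and 0.171 against 0.115 at 6 h, so the median of the members was the higher at each exposed harvest, while at 0 h it was 0.0972 against 0.112. These medians are not matched for level, and the choice makes the members low at the exposed harvests. For the 44 members with a 0 h mean of 20 or more, the median coefficient of variation was 4.42% at 0 h, against 3.90% over all tested genes at that level. With a mean of 20 or more at 2 h (16 members) it was 3.82% against 5.86%, so the members were the lower there. At 4 h (14 members) it was 5.24% against 3.92%, and at 6 h (14 members) 4.57% against 4.29%. In 6 members (6.74%) the SD of log2(value + 1) reached 1 in some harvest, as it did in 3.20% of all tested genes. The choice makes the members low at the exposed harvests, so nothing is read from this contrast either. Among these 6 members are the 3 whose exposed and 0 h libraries overlapped.

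The member ranked 40 read 23.35, 25.57 and 30.91 at 0 h, but 14.04, 0.00 and 17.08 at 2 h, 14.29, 0.00 and 20.05 at 4 h and 0.00, 27.30 and 16.84 at 6 h. A single library at 0 in each exposed harvest set its place among the members, while its other exposed libraries read 14.04 or more. In mean value 55.3% was left at 6 h, the highest of any member. The member ranked 47 read 6.19, 38.19 and 3.79 at 0 h, 4.16, 3.12 and 0.00 at 2 h, 11.00, 3.95 and 0.00 at 4 h and 0.00, 18.77 and 0.00 at 6 h, so that each exposed harvest overlapped 0 h. The member ranked 60 had 10.04, 1.73 and 16.17 at 0 h, and its highest exposed libraries, 3.36 at 2 h and 4.39 at 6 h, lay above the lowest of these. For these genes the difference of means does not describe all libraries, and a value of 0 can be a failed estimate.

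Identifier numbers rise in steps of 10, and what adjacent numbers mean on the genome is not given in the table. No member had another member at the next number. Of the 178 genes 1 step from a member, 82 were tested, and 17 of these (20.7%) were called lower at 2 h, where 20.8% of all tested genes were (limma). At 6 h it was 14 (17.1%), where the share was 18.5%. Their median 2 h difference was 0.16, against 0.13 over all tested genes. There were 2 pairs of members 4 steps apart. One joins CTI12_AA229990 with the member ranked 14, which averaged 97.4 ± 2.82 at 0 h (SD, n = 3), then 29.2 ± 3.02 after 2 h, 26.2 ± 0.890 after 4 h and 30.7 ± 1.90 after 6 h; reads shared between close copies cannot be judged without sequences.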

How the data were processed

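The authors deposited 1 table of normalised expression signal with 63226 identifiers and 12 libraries, 2 decimals and no named unit. Totals of 851404 to 868133, and smallest values that differ between genes, resemble TPM with genes missing or FPKM. HISAT2 2.1.0, Salmon and DESeq are named without roles, per the submitters' processing notes; for the genome build the sources used here give nothing. No other columns were present (0). Members and comparisons were chosen with earlier results of these data known.

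Values were taken as log2(value + 1). Genes at 1 or more in at least 3 libraries (25841) entered 1 limma 3.58.1 model (R 4.3.3; trend and robust estimation; 4 groups, 12 libraries, no replicate term), with Benjamini-Hochberg adjustment over all genes; the procedure was tested on simulated data. Percentages left and folds divide mean values, with no pseudocount added. Precision rests on 3 libraries, since depth is unknown.

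Printed identifiers are the member of highest 0 h mean, that of largest 6 h difference, and the 2 of largest called rise between 4 and 6 h. Other members were picked as examples after their values were seen. Libraries of equal number did not deviate together (correlations of -0.025 to 0.043). Alternatives were other pseudocounts, scaling, filters, models, a replicate block, rule limits and leaving out each library.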

Additional observations from a re-analysis of the deposited data

Results flagged for a closer look

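The effects of the exposed harvests, each against 0 h, differed from one another for some members, by limma's test of the difference itself. Shares of members are limited by the choice, and 21 members passed the filter only with their 0 h libraries. These shares stand here beside those of all tested genes, and nothing is read from the contrast. Between 6 and 2 h, 12 members were higher and 20 lower (13.5% and 22.5%, against 29.9% and 20% of all tested genes). Between 6 and 4 h, 6 members were higher and 8 lower (6.74% and 8.99%, against 4.44% and 5.47%). None of these differences reached 1 on the log2(value + 1) scale; in ratio of mean values, 2 of the called members were at 2 or more and 4 at 0.5 or less between 6 and 2 h, and 1 was at 2 or more between 6 and 4 h. Effects of the 3 exposed harvests share the 0 h libraries.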

How the results depend on the processing

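The number of members depends on the limits of the rule and on the scale. It was 192 with a pseudocount of 0.1 (76 of the 89 among them), 31 with 5 (28 among them) and 156 with median-ratio scaling (all 89 among them). It was 213 without a minimum group mean and 57 with a minimum of 1, and 335 and 23 with limits of 1 and 2 on the log2 difference. Leaving out each library in turn gave 87 to 103 members. At 6 h against 4 h, leaving out each library gave 3 to 7 members higher and 6 to 9 lower, the model of these 2 harvests gave 3 higher, and a minimum difference of 1 on the log2(value + 1) scale gave 0 higher and 0 lower. At 6 h against 2 h, leaving out each library gave 11 to 14 higher and 17 to 21 lower, and the same minimum difference gave 0 and 0. A replicate block gave 5 higher and 7 lower at 6 h against 4 h, and 12 and 20 against 2 h; the numbers do not pair the libraries. The difference of CTI12_AA476540 between 6 and 4 h, not called in any fit, changed sign to 0.034 without library 3 of the 4 h harvest (-1.71 to 0.034 over the libraries left out). The share of genes lower by 1.5 or more in the library not used to choose them was 72.8% over the 3 choices together and 70.4% to 76.3% in each. Where these counts moved, beyond fewer libraries or another limit, the cause was not tested. Depth is unknown, and 40 members had a mean under 5 over the 12 libraries, where 1 was called between 6 and 4 h.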
